A study of Mus musculus with 24 samples.

Results

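Mitosis genes were followed by RNA-seq in C2C12 cells, a mouse myoblast line long kept in culture, and in primary myoblasts (PMs) during differentiation and after silencing of Tead1 and Tead4. The members are the rows of the deposited gene table that carry the Gene Ontology process term mitosis and do not also carry the term DNA replication. The rule gave 194 genes of 28109 rows. Of 197 genes with the term, 3 were left out for the second term, and 164 of the 194 members also carry the term cell division. No measured value enters the rule. The annotation is not complete: well-known mitotic genes such as Ccnb1, Bub1, Ttk and Kif11 lack the exact term, and they are counted apart as other genes of the pathway.

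In mitosis, the kinase Cdk1 with its B-type cyclins drives entry into division, condensins compact the chromosomes, kinetochores attach them to spindle microtubules and a checkpoint holds the cell until all are attached. The anaphase-promoting complex, activated by Cdc20, then marks securin and the B-type cyclins for destruction, and cohesin releases the sister chromatids. Many of these genes are transcribed in the G2 phase and in mitosis through a promoter element called the cell cycle genes homology region (CHR), often beside CCAAT boxes, and are repressed in resting cells. Myoblasts leave the cell cycle before they fuse to myotubes, and a muscle fibre nucleus does not divide again.

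Cells received siControl, a control siRNA that the labels call siLuc, or siTead1/4, siRNAs against the transcription factors Tead1 and Tead4 together. RNA was taken on the day after transfection, before the move to a low-serum differentiation medium (day 0), and at days 3 and 6 after that move. The labels give strain C3H for C2C12 cells and C57/B6 for PMs, which the study isolated from young wild type mice. In the study's methods C2C12 cells were kept in DMEM, and PMs in IMDM on Matrigel. Cell type, strain, base medium and culture surface therefore cannot be told apart. C2C12 cells are a single established line, and the labels name biological replicates but no separate animals, so p-values measure the spread between these libraries. Each of the 12 groups had 2 libraries, 24 in all, with 25453830 to 52784510 counts on genes per library.

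Silencing was checked first. Tead4 stood at 18.7 and 21.2 CPM (CPM are counts scaled to a common library total after TMM) in siControl C2C12 cells at day 0 and at 4.37 and 4.28 in siTead1/4 cells, and at 64.2 and 59.5 against 13.2 and 11.1 in PMs. Tead1 stood at 70.5 and 113 against 28.8 and 4.50 in C2C12 cells and at 172 and 151 against 69.8 and 50.1 in PMs. The siTead1/4 libraries of day 0 were lower for both targets, and the C2C12 replicates differed for Tead1. In C2C12 cells the log2 fold change of Tead1 was -2.46 ± 0.66 (SE) at day 0, -1.09 ± 0.63 at day 3 and -0.52 ± 0.63 at day 6. That of Tead4 was -2.21 ± 0.37, -1.76 ± 0.35 and -1.28 ± 0.34. In PMs Tead1 changed by -1.44, -1.68 and -1.10 and Tead4 by -2.36, -2.58 and -1.75. Silencing in C2C12 cells was thus weaker at day 6 than at day 0, most of all for Tead1. Tead4 was called lower in C2C12 cells at days 0 and 3 and in PMs at each day, whereas Tead1 was called in PMs at days 0 and 3 and not in C2C12 cells (day 0 adjusted p = 0.17, edgeR). Leaving out any of the 4 libraries compared ended the Tead4 call in C2C12 cells at day 0 (adjusted p 0.075 to 0.21, edgeR) and at day 3 (0.054 to 0.27) and the Tead1 call in PMs at day 0 (0.073 to 0.15). The Tead1 call in PMs at day 3 was lost without siControl replicate 1 (0.061) or siTead1/4 replicate 2 (0.089). Tead1 in C2C12 cells at day 0 was called by DESeq2 (-2.47, adjusted p = 0.0032) and by edgeR without siTead1/4 replicate 1 (-4.34, adjusted p = 0.034). The myoblast and muscle markers had counts in every library, though Msc went as low as 0.047 CPM and Actn2 0.22. The 7 myoblast markers summed to 774 to 7156 CPM in C2C12 cells and 4496 to 10114 in PMs, with the highest medians for Des (3119) and Chrna1 (1793). This sum rose from 1577 and 1369 CPM at day 0 to 5794 and 5556 at day 3 in siControl C2C12 cells. In siControl PMs it rose from 4876 and 4881 to 10079 and 9666. The 10 muscle differentiation markers summed to 47.4 to 24272 CPM in C2C12 cells and to 9351 to 52619 in PMs, where they were already high at day 0. Markers of other cell types were low: 6 endothelial genes summed to at most 16.9 CPM, 6 macrophage genes to at most 9.29 and 6 Schwann cell genes to at most 27.1, with Emr1 and Ptprc at 0 in 21 and 17 of 24 libraries. The 7 fibroblast genes summed to 54.5 to 441 CPM in C2C12 cells and 67.6 to 3000 in PMs, where Col1a1 alone reached 2839, and Tcf21 was at 0 in every library. This sum moved with differentiation, from 61.0 and 54.5 CPM at day 0 to 389 and 342 at day 3 in siControl C2C12 cells, and from 97.8 and 67.6 to 1159 and 1046 and then to 3000 and 1897 at day 6 in siControl PMs. The part of cells of other types in the results was not tested. In bulk samples fewer cells of a type and less RNA per cell cannot be told apart, so that a lower level of a mitosis gene can be fewer dividing cells or less of the transcript in each.

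The 77 mitosis genes called lower in both cell types between siControl day 0 and day 3 fell by a median of 8.09-fold in C2C12 cells and 8.24-fold in PMs. The other tested members had medians of -0.11 and -0.17 on the log2 scale. These genes were chosen by their calls in the same contrasts, so the gap between the medians follows in part from that choice. The others include members called lower in a single cell type, such as Pttg1 and Haus8. In siControl C2C12 cells 88 of 188 tested members were lower at day 3 and 9 were higher. Of the 194 members, 3 had at most 3 counts in every library, and AC175035.1, Ccna1, Dynlt1f, Sycp3 and Wee2 were below the count filter in both cell types and Fsd1 in C2C12 cells. The call was an adjusted p under 0.05 in edgeR's quasi-likelihood test with an absolute log2 fold change over 1, and it marked 12.7% of all 15303 tested genes as lower and 16% as higher. In siControl PMs 83 of 189 tested members were lower and 8 were higher, where 14.9% of 16144 genes were called lower and 17.5% higher. The median log2 fold change of the tested members was -0.86 in C2C12 cells and -0.79 in PMs, against -0.01 and 0.01 over all genes tested. The members together held between 18107 and 23038 CPM in the day 0 libraries and between 12336 and 15818 in those of days 3 and 6, and these ranges did not overlap.

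The cell types shared most of these calls. Among the 188 members tested in both, 88 were lower in C2C12 cells, 82 in PMs and 77 in both, which is 87.5% of the first list and 93.9% of the second. The same overlap was not computed over all tested genes, so whether it is particular to the members is not shown. The shared 77 had a median log2 fold change of -3.02 in C2C12 cells and -3.04 in PMs. In all, 40 of them were below -3 in each cell type. Higher in both were 5 members, Bod1, Klhl13, Mapre3, Rgs14 and Sirt2, of 9 in C2C12 cells and 8 in PMs. No member was called in opposite directions.

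**Figure D1:**
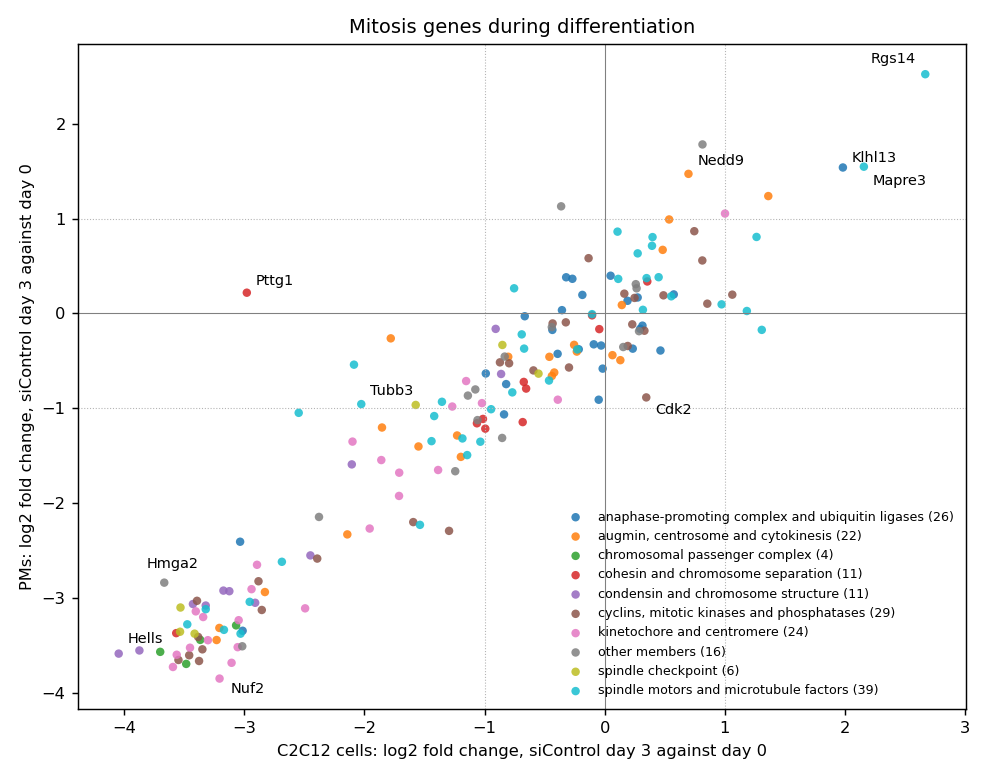
Log2 fold change of each mitosis gene tested in both cell types (188 points, coloured by role) between siControl day 3 and day 0, with C2C12 cells on the x axis and PMs on the y axis and dotted lines at the fold limit of 1. The points run along the diagonal from a dense group near -3 in both to a group around 0, and Pttg1 lies apart at -2.98 in C2C12 cells and 0.22 in PMs.

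Among the 31 cyclins, mitotic kinases and phosphatases, 29 were tested and 11 fell in both cell types, while 1, Ccng2, rose in C2C12 cells. Cdk1, the kinase that starts mitosis, was at 281 and 244 CPM in siControl C2C12 cells at day 0 and at 28.6 and 23.1 at day 3, a log2 fold change of -3.38 ± 0.54 (SE, adjusted p = 0.00089, edgeR). In PMs it was at 196 and 197 and then at 18.3 and 20.04, a log2 fold change of -3.41 ± 0.28 (adjusted p = 3.2e-06, edgeR). Day 0 and day 3 libraries did not overlap in either cell type, and 9.86% and 9.76% of the day 0 level remained. Its partners fell alongside, the A-type cyclin Ccna2 by 3.35 and 3.54 on the log2 scale and the B-type cyclin Ccnb2 by 2.85 and 3.13, in C2C12 cells and PMs in this order. The kinases Plk1 (-3.46 and -3.61) and Aurka (-3.55 and -3.66), which build and mature the spindle poles, and the phosphatase Cdc25c (-3.38 and -3.67), which activates Cdk1, had changes of like size. Smaller falls were those of Wee1, the kinase that holds Cdk1 inactive (-1.59 and -2.20), and of Cdc25b (-1.30 and -2.29). Other kinases of the group, such as Nek9 (0.81 and 0.56), Map2k1 (0.16 and 0.21) and Csnk1a1 (0.49 and 0.19), were not called.

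The promoters of a few such genes are shown because most members that fell in both cell types and were matched to a promoter hold a CHR, while Cdc16, a subunit of the anaphase-promoting complex that was not called, and Sirt2, which rose, do not. Each line is the 120 bases just before the start site, 5′ to 3′ on the strand of the gene, from RefSeq on GRCm38.p6, a later build than that of the counts. Capitals mark the CHR (TTTGAA or TTCGAA on either strand, hence also TTCAAA), the CCAAT box (CCAAT or ATTGG) and the core of the Tead motif (GGAATG or CATTCC). The positions are chr10:69352913-69353032 on the minus strand for Cdk1, chr4:118437344-118437463 on the minus strand for Cdc20, chr17:24251410-24251529 on the minus strand for Ccnf and chr2:164769809-164769928 on the plus strand for Ube2c. They are chr8:13757536-13757655 on the plus strand for Cdc16 and chr7:28766632-28766751 on the plus strand for Sirt2.
Cdk1: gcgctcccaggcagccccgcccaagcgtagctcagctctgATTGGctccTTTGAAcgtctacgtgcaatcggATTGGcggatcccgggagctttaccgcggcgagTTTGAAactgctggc
Cdc20: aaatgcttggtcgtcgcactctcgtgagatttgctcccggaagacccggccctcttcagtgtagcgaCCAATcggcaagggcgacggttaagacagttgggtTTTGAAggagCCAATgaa
Ccnf: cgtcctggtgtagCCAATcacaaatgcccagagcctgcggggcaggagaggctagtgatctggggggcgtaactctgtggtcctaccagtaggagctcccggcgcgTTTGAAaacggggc
Ube2c: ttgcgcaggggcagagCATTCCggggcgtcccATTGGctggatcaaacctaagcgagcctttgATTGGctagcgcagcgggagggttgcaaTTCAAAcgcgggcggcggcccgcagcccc
Cdc16: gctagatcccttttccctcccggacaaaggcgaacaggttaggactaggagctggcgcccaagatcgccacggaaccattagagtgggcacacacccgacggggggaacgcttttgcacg
Sirt2: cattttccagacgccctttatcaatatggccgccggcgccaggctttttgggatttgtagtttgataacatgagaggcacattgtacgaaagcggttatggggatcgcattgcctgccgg

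Cdk1 holds 2 CHRs, with the nearer starting 15 bases before the start site, and 2 CCAAT boxes. Cdc20 has a CHR at 18 bases and Ccnf at 14 bases before the start, and in Ube2c it lies on the other strand at 29 bases. Of the 194 members, 155 were matched to the 300-base promoters of RefSeq (250 bases before to 50 after the start). A CHR was found in 37 of 59 matched members that fell in both cell types (62.7%), in 14 of 68 called in neither (20.6%), in 3 of 23 that rose or were called in a single cell type (13%) and in 21.7% of all 27025 genes. A CCAAT box was found in 54.2%, 45.6%, 56.5% and 41.1% of the same sets, and both elements in 40.7%, 8.8%, 8.7% and 8.6%. The Tead core was found in 5 of 59 members that fell in both (8.5%) and in 13.2% of those called in neither. It was found in 17.4% of those that rose or were called in a single cell type and in 16.6% of all genes. The study placed most Tead4 sites of C2C12 cells far from start sites, where these promoters do not reach. The share with a CHR thus differed most between the sets, while the CCAAT box alone was common in each. These are matches of letters and not measured binding sites, a gene with several start sites had more chances of a match, and no test was run.

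The 4 genes grouped with the chromosomal passenger complex, which corrects faulty attachments and drives cytokinesis, fell in both cell types. They are 3 subunits and Sgol1 (shugoshin), which protects cohesin at centromeres and is not a subunit. Aurkb, its kinase, was at 94.7 and 94.7 CPM at day 0 and at 9.18 and 8.24 at day 3 in siControl C2C12 cells, and at 75.3 and 70.5 and then 5.67 and 6.01 in PMs. The log2 fold changes were -3.48 ± 0.78 (adjusted p = 0.0057, edgeR) and -3.70 ± 0.32 (adjusted p = 4.1e-06, edgeR). The scaffold Incenp changed by -3.07 and -3.29, the subunit Birc5 (survivin) by -3.70 and -3.57 and Sgol1 by -3.37 and -3.44. Of the 6 spindle checkpoint members, 4 fell in C2C12 cells and 3 in PMs. Cdc20, the target of the checkpoint, was at 176 and 163 CPM at day 0 and at 16.7 and 16.0 at day 3 in C2C12 cells, and at 148 and 144 and then 14.8 and 14.5 in PMs. Zwilch and Kntc1, which recruit checkpoint proteins to kinetochores, changed by -3.53 and -3.53 in C2C12 cells and by -3.36 and -3.10 in PMs, whereas Mad1l1 (-0.85 and -0.33) was not called.

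Kinetochore and centromere genes were the role with the largest number of falls, 22 of 24 in C2C12 cells and 19 of 24 in PMs. The Ndc80 complex, which grips the microtubule end, fell as a whole: Ndc80 by 3.05 and 3.24, Nuf2 by 3.21 and 3.85, Spc24 by 3.05 and 3.52 and Spc25 by 2.89 and 2.65 on the log2 scale in C2C12 cells and PMs. Nuf2 had the largest fall in PMs, from 116 and 114 CPM to 7.83 and 8.74, and Ska1, which steadies the same attachment, was next (-3.73 ± 0.34, adjusted p = 6.9e-06, edgeR). Casc5, the platform for checkpoint proteins, changed by -3.45 and -3.53, and the microtubule depolymerase Kif2c by -3.30 and -3.45. In C2C12 cells the calls of Casc5, Kif2c, Ndc80 and Nuf2, and of Ccna2 and Cep55 in other roles, were lost when either siControl day 3 library was left out (adjusted p 0.054 to 0.10, edgeR), with log2 fold changes from -3.62 to -2.94. Casc5 was also lost without siControl day 0 replicate 2 (-3.17, adjusted p = 0.060, edgeR). Ccnb2, Plk1 and Tpx2 were lost without day 3 replicate 2 alone (adjusted p 0.051 to 0.058, edgeR), and Smc3 without day 3 replicate 1, where its change of -0.96 was below the fold limit. Members that also serve the nuclear pore fell less, such as Nup37 (-1.71 and -1.68) and Nup43 (-1.86 and -1.55), and Seh1l was not called (-0.39 and -0.91). The exception in direction was Bod1, a phosphatase inhibitor at kinetochores, which rose from 61.9 and 58.4 CPM to 129 and 118 in C2C12 cells and from 79.6 and 75.8 to 170 and 165 in PMs. Its log2 fold changes of 1.001 and 1.05 were only just over the fold limit.

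Condensins and cohesins, both ring complexes of SMC proteins, differed in the size of their change. In each cell type 9 of 11 members of the condensin and chromosome structure group fell. Smc2, shared by both condensins, was at 291 and 298 CPM at day 0 and 29.4 and 31.2 at day 3 in C2C12 cells, and at 218 and 211 and then 25.05 and 27.6 in PMs. The same group held the largest falls in C2C12 cells, those of the chromatin remodeller Hells (-4.04 ± 0.63, adjusted p = 0.00074, edgeR) and of Ercc6l (-3.87 ± 0.72, adjusted p = 0.0021, edgeR), followed by Birc5. Of the 11 members of the cohesin and separation group 4 fell in C2C12 cells and 5 in PMs. Rad21, the subunit that separase cuts, was not called (-0.67 and -0.72), and it kept 64.4% of its day 0 level in C2C12 cells and 63% in PMs. Smc3 fell by 1.06 and 1.16, and Cdca5 (sororin), which protects cohesin on paired sisters, fell by 3.57 and 3.37.

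Pttg1, the securin that holds separase inactive, behaved differently in the cell types. In siControl C2C12 cells it was at 77.1 and 70.1 CPM at day 0 and at 11.6 and 7.59 at day 3, a log2 fold change of -2.98 ± 0.56 (adjusted p = 0.0024, edgeR). In siControl PMs its CPM were 13.7 and 13.6 at day 0, then 15.9 and 17.1 (day 3), then 18.2 and 18.5 (day 6). PMs at day 0 were thus near the level that C2C12 cells reached after differentiation, and the value at day 3 was not called (0.22 ± 0.12, adjusted p = 0.16, edgeR). At day 0 Pttg1 was lower in PMs than in C2C12 cells by 2.43 ± 0.43 on the log2 scale (adjusted p = 0.00025, edgeR, 24 libraries). Its part in the differentiation contrast differs in sign between the cell types, and that difference itself was not tested.

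The anaphase-promoting complex was the counterpart, with 2 of 26 members of this group lower in C2C12 cells and 3 in PMs. Of its subunits, Anapc2 (0.27 and 0.17), Anapc7 (0.19 and 0.13), Cdc26 (-0.03 and -0.34), Cdc16 (-0.02 and -0.58), Anapc5 (-0.67 and -0.03) and Cdc23 (-0.05 and -0.91) were not called. Cdc23 kept 55.3% and Cdc16 69.4% of the day 0 level in PMs, and Anapc5 kept 64.8% in C2C12 cells. Cdc16 was at 100.7 and 76.1 CPM at day 0 and 94.8 and 84.9 at day 3 in C2C12 cells. Anapc1, the largest subunit, was called in PMs (-1.07) and not in C2C12 cells (-0.84). The activator Fzr1, which keeps the complex active in resting cells, was at 94.7 and 94.7 CPM and then 56.6 and 53.7 in C2C12 cells and was not called there (-0.82) or in PMs (-0.75), both short of the fold limit. The members of this group that fell in both were Ube2c (-3.03 and -2.41), the ubiquitin conjugase dedicated to the complex, and Cdca3 (-3.01 and -3.35). The Ube2c gene overlaps Tnnc2, a troponin gene, and the libraries keep no strand. Klhl13, an adaptor of a ubiquitin ligase that acts on Aurkb, rose from 13.0 and 3.62 CPM to 30.7 and 36.6 in C2C12 cells and from 129 and 127 to 387 and 385 in PMs. Its call in C2C12 cells was lost without siControl day 0 replicate 2 (adjusted p = 0.20, edgeR) or without either day 3 library (0.083 and 0.13).

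Spindle motors and microtubule factors were mixed, with 16 of 39 tested members lower and 5 higher in C2C12 cells and 15 of 40 lower and 2 higher in PMs. Spindle genes proper fell: Tpx2, which activates Aurka on the spindle, by 3.17 and 3.34, the kinesins Kif18b by 3.47 and 3.28 and Kifc1 by 3.32 and 3.12. Of dynein and dynactin, which carry cargo in non-dividing cells too, the subunits Dctn2 (0.39 and 0.71), Dctn3 (0.40 and 0.80) and Dync1li1 (0.55 and 0.18) were not called. Nor was the dynein regulator Pafah1b1 (-0.11 and -0.01). The light chain gene Dynlt1a fell in C2C12 cells alone, from a mean of 1.31 CPM at day 0. Among other dynein partners, Nudc fell in C2C12 cells alone and Nde1 in both cell types. The tubulins split. Tubb5, which had the highest level per length of the members at day 0, fell by 1.54 and 2.23 and Tubb4b by 1.42 and 1.08, whereas Tubb2b rose in C2C12 cells (1.18). The tubulin genes and the Dynlt1 copies are close in sequence, and reads can be assigned to the wrong copy.

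The largest rises were in this group too. Rgs14, a regulator of G-protein signalling that also binds microtubules, had 5 and 17 counts at day 0 and 62 and 78 at day 3 in siControl C2C12 cells, 0.141 and 0.302 CPM against 1.46 and 1.58 (log2 fold change 2.67 ± 0.41, adjusted p = 0.00077, edgeR). In PMs the levels were 0.254 and 0.535 CPM and then 1.49 and 3.08 (2.52 ± 0.52, adjusted p = 0.0017, edgeR). Mapre3, a microtubule plus-end protein known from muscle and nerve, rose from 17.1 and 19.7 CPM to 87.7 and 80.8 in C2C12 cells and from 37.2 and 38.7 to 125 and 105 in PMs. Its relatives Mapre1 (-0.46 and -0.71) and Mapre2 (-1.14 and -1.49) did not rise, and Mapre2 fell. In PMs Ttyh1 was also among the 3 largest rises, though at levels of at most 2.16 CPM in any PM library. Its call was lost without day 3 replicate 1 (0.85, adjusted p = 0.25, edgeR) or day 0 replicate 2 (1.51, adjusted p = 0.11, edgeR).

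The group of augmin, centrosome and cytokinesis genes was divided along the same lines. In C2C12 cells 9 of 22 fell and in PMs 8 of 22. Aspm (-2.83 and -2.94), Anln (-3.21 and -3.32) and Cep55 (-3.23 and -3.45), which work at spindle poles and at the midbody, fell most. The augmin subunits Haus1 (-1.85 and -1.20), Haus3 (-1.55 and -1.40), Haus4 (-1.20 and -1.51) and Haus5 (-2.14 and -2.33) fell in both, Haus8 in C2C12 cells alone (-1.78 and -0.26), and Haus2 and Haus7 were not called. The septins Sept2 (0.06 and -0.44) and Sept7 (-0.42 and -0.62) were not called, and Sirt2, a tubulin deacetylase, rose by 1.36 and 1.24. Among the 17 remaining members, 7 fell in C2C12 cells and 6 in PMs, among them the chromatin protein Hmga2 (-3.67 and -2.84) and the fork protection partners Timeless (-3.02 and -3.51) and Tipin (-2.38 and -2.15).

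Some members were called in a single cell type, and the share of all genes called so was not computed. Lower in C2C12 cells alone were 11, Ahctf1, Cd2ap, Cenpv, Dynlt1a, Haus8, Mis12, Nudc, Pttg1, Ruvbl1, Tubb3 and Zw10, and those lower in PMs alone included Anapc1, Ckap5, Smc1a and Stag1. Some of these lay near the fold limit in the other cell type, for example Mis12 at -1.27 and -0.98, and others far from it, such as Haus8. Higher in C2C12 cells alone were Arhgef2, Ccng2, Clasp1 and Tubb2b, and in PMs alone Lmln, Nedd9 and Ttyh1. Whether the change differed between the cell types was not tested for them.

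The other genes of the pathway are a list of mitotic genes without the exact term. The list was drawn up with earlier results of these data known, so its values are a description and no independent check. Of 57 tested, 54 were lower in C2C12 cells and 53 in PMs at day 3 and none was higher, with medians of -3.10 and -3.24. Of all genes tested, 12.7% and 14.9% were called lower. The medians were near those of the 77 members that fell in both (-3.02 and -3.04) and unlike those of the other members (-0.11 and -0.17). Ccnb1, the main partner of Cdk1, changed by -3.54 and -3.77, the checkpoint kinases Bub1 by -3.53 and -3.68 and Ttk by -3.37 and -3.50, and the spindle motor Kif11 by -3.23 and -3.58. Regulators of the same transcription programme fell as well, Foxm1 by 3.29 and 3.04 and Mybl2 by 4.85 and 4.36 on the log2 scale. Cdc27, a subunit of the anaphase-promoting complex, was not called (-0.05 and -0.63), nor were Lin37 and Lin52.

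Between day 3 and day 6 almost no mitosis gene was called. In siControl C2C12 cells no member was called by edgeR in either direction, and neither was any other gene (0%, with 406 of 15303 genes at an unadjusted p under 0.05). At an unadjusted p under 0.05 there was 1 lower member, Cdk2 (-0.39 ± 0.17, adjusted p = 1, edgeR), and DESeq2 called no member. In siControl PMs Ccna2 alone was lower, from 16.7 and 20.5 CPM at day 3 to 10.6 and 6.16 at day 6 (-1.16 ± 0.22, adjusted p = 0.015, edgeR), where 0.582% of all genes were called lower and 2.22% higher. No member was called higher there. More members were called lower in the fit without siControl day 6 replicate 1, and the share of all genes in that fit is not given. The Ccna2 call was lost without day 3 replicate 2 (-1.01, adjusted p = 0.077, edgeR) and without day 6 replicate 2, where the change of -0.83 was below the fold limit. The smallest p among the rises in PMs was that of Nedd9 (0.69 ± 0.11, adjusted p = 0.0091, edgeR), below the fold limit.

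The replicates at day 6 stood apart in the very genes that fell. Over the 77 genes lower in both cell types, replicate 2 was above replicate 1 by a median of 1.33 on the log2 scale in siControl and 1.795 in siTead1/4 C2C12 cells at day 6, with 71 of 77 genes higher in each. In PMs at day 6 replicate 2 was below replicate 1 by a median of 0.54 and 0.42. In the other 8 groups the median difference lay between -0.25 and 0.14. Cdk1 shows it: 18.9 and 45.4 CPM in siControl and 22.7 and 73.2 in siTead1/4 C2C12 cells. The summed level of the 77 genes was 19.4% and 30.2% of siControl day 0 in the siControl libraries and 18.9% and 39.3% in the siTead1/4 libraries. Without both C2C12 replicate 2 libraries of day 6, an alternative added after seeing the data, 87 members were lower and 8 higher at day 3 against day 0 in C2C12 cells. The median silencing effect at day 6 in C2C12 cells was then 0.06 over the members, against 0.19 with them.

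**Figure D2:**
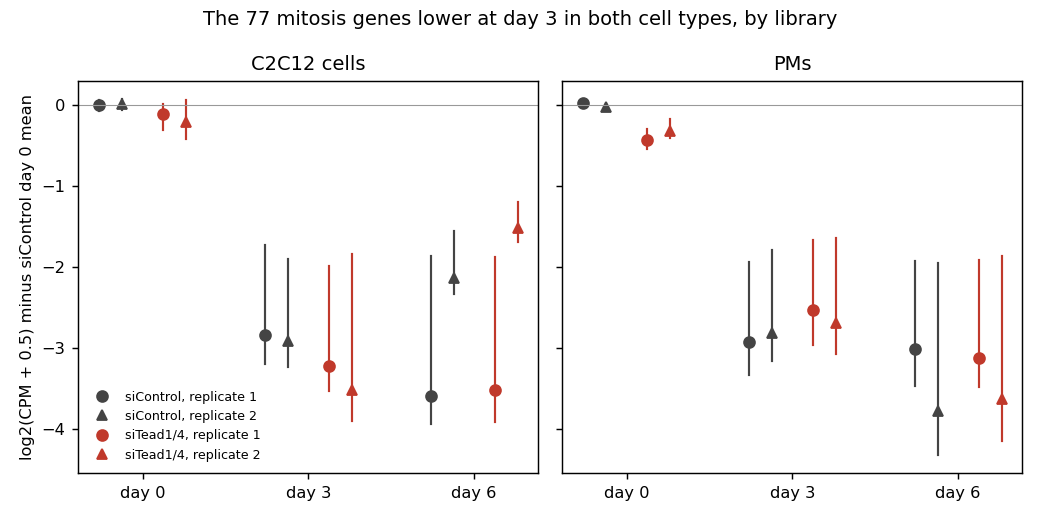
Median (point) and interquartile range (line) over the 77 mitosis genes lower at day 3 in both cell types of log2(CPM + 0.5) minus the siControl day 0 mean of the same cell type, for each of the 24 libraries by day, siRNA and replicate. The 2 replicate 2 libraries of C2C12 cells at day 6 stand at -2.13 and -1.52, and all other libraries of days 3 and 6 between -3.77 and -2.53.

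Silencing of Tead1 and Tead4 called few mitosis genes at any day. In C2C12 cells 1 member was called at day 0, Hmga2, lower, and none at days 3 and 6. The background was 0.301% of genes lower and 0.137% higher at day 0, 1.08% lower and 0.19% higher at day 3, and 0.0327% lower and 0.0131% higher at day 6. In PMs 1 member was higher at day 0, 2 were higher and 1 lower at day 3 and 1 was higher at day 6. The background was 1.5% higher and 1.1% lower at day 0, 2.1% higher and 1.2% lower at day 3, and 0.465% higher and 0.279% lower at day 6. The counts of members were thus near or below the share of all genes. In C2C12 cells 3, 5 and 5 members were higher and 9, 7 and 1 lower at an unadjusted p under 0.05 at days 0, 3 and 6, and DESeq2 called 1 member higher at day 3 and at day 6. The share of all genes under that looser rule is not given, so whether these counts exceed the background is not shown. In directions without a call in C2C12 cells, the smallest p values were those of Mapre3 at day 0 (0.76 ± 0.25, adjusted p = 0.29, edgeR), of Cdk2 at day 3 and of Bod1 at day 6 (-0.49 ± 0.22, adjusted p = 0.70, edgeR). In PMs at day 6 it was that of Haus8 (-0.46 ± 0.14, adjusted p = 0.18, edgeR).

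**Figure D3:**
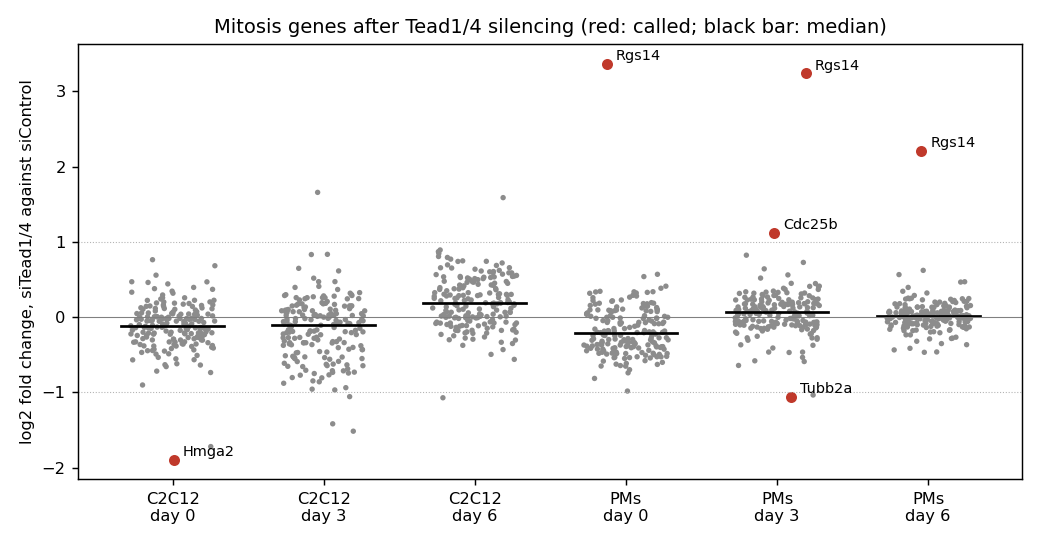
Log2 fold change of each tested mitosis gene (188 in C2C12 cells, 189 in PMs) in siTead1/4 against siControl cells at each day, with called members in red and the median as a black bar. Most points lie between -1 and 1, Rgs14 is called at each day in PMs, and the medians run from -0.21 in PMs at day 0 to 0.19 in C2C12 cells at day 6.

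Rgs14 was the member with the largest response to silencing. In PMs at day 0 it was at 0.254 and 0.535 CPM in siControl and at 2.96 and 5.00 in siTead1/4 cells, a log2 fold change of 3.37 ± 0.50 (adjusted p = 0.0044, edgeR). At day 3 it was at 1.49 and 3.08 against 24.2 and 19.4 (3.24 ± 0.42, adjusted p = 0.0019, edgeR), and at day 6 at 1.94 and 3.75 against 12.1 and 14.2 (2.21 ± 0.41, adjusted p = 0.035, edgeR). The siTead1/4 libraries were above the siControl libraries at each day with no overlap, the call at day 0 was lost without siControl replicate 1 (2.89, adjusted p = 0.062, edgeR), and that at day 6 was lost when any of the 4 libraries was left out. In C2C12 cells it was at 0.141 and 0.302 against 0.282 and 0.146 CPM at day 0. At day 3 it was at 1.46 and 1.58 against 4.15 and 5.65 (1.66 ± 0.36, adjusted p = 0.055, edgeR), and at day 6 at 2.45 and 2.51 against 6.16 and 8.66 (1.59 ± 0.35, adjusted p = 0.20, edgeR). The groups did not overlap at days 3 and 6 in C2C12 cells either, and neither value was called by edgeR. At day 3 the call was made with the replicate block (1.65, adjusted p = 0.045, edgeR), without the count filter (adjusted p = 0.00053, edgeR), without siTead1/4 replicate 1 (1.87, adjusted p = 0.04, edgeR) and by DESeq2 (adjusted p = 0.0005). At day 6 it was made without the count filter (adjusted p = 0.0029, edgeR) and by DESeq2 (adjusted p = 0.0025). The effect at day 0 was larger in PMs by 3.42 ± 0.78, which did not pass the adjustment (adjusted p = 0.30, edgeR, 24 libraries), though it did without the count filter (adjusted p = 0.0012, edgeR) and by DESeq2 (adjusted p = 0.01).

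Hmga2, a chromatin protein of proliferating and embryonic cells, was at 399 and 454 CPM in siControl and at 126 and 104 in siTead1/4 C2C12 cells at day 0 (-1.89 ± 0.32, adjusted p = 0.037, edgeR). In PMs it was at 286 and 356 against 218 and 284 (-0.36 ± 0.34, adjusted p = 0.57, edgeR), and the highest siTead1/4 library was just below the lowest siControl library. By day 3 both siRNAs had low levels in C2C12 cells, 38.3 and 30.8 against 40.8 and 84.9. The call at day 0 was lost when any of the 4 libraries was left out, with log2 fold changes between -2.03 and -1.78. The Hmga2 gene overlaps other annotated transcripts of the table.

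In PMs at day 3 Cdc25b, the phosphatase that starts the activation of Cdk1, was at 18.3 and 28.5 CPM in siControl and at 48.3 and 54.5 in siTead1/4 cells (1.12 ± 0.26, adjusted p = 0.03, edgeR). It thus fell less from day 0 in the silenced cells, where day 0 stood at 80.0 and 96.4, than in siControl cells at 104 and 117. The test of that difference did not pass the adjustment (1.46 ± 0.37, adjusted p = 0.11, edgeR). Tubb2a, a tubulin, was at 261 and 198 against 100 and 122 CPM (-1.06 ± 0.26, adjusted p = 0.033, edgeR). Both calls were lost in 3 of the 4 fits that leave out a library of these groups. In C2C12 cells at day 3 Cdc25b did not differ beyond its error (0.07 ± 0.26, adjusted p = 0.95, edgeR).

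Many mitosis genes were lower by less than the fold limit in silenced PMs at day 0. The median log2 fold change over 189 members was -0.21, 136 were lower and 53 higher, and the 57 other genes of the pathway had a median of -0.47, against -0.01 over all genes tested. The 77 genes that fell during differentiation in both cell types had a median of -0.39 and the other 112 members one of -0.03. The 77 were chosen on the siControl day 0 libraries among others, so that these values are a description. At an adjusted p under 0.05 alone 15 members were lower and 1 higher, where this rule marked 4.31% of all genes lower and 3.41% higher. Among the 15 were Tubb3 (-0.98 ± 0.16), the kinetochore gene Fam33a (-0.81 ± 0.13), Ube2c (-0.63 ± 0.13), Tubb5 (-0.54 ± 0.13) and the kinase Lats2 (-0.46 ± 0.11). Cdk1 was at 196 and 197 CPM in siControl and at 129 and 154 in siTead1/4 PMs, without overlap, but did not pass the adjustment (-0.48 ± 0.25, adjusted p = 0.29, edgeR). Of 26 well-known mitotic members listed as landmarks, 24 were lower in PMs at day 0, with a median of -0.48.

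These medians were not constant over time. The median of the 26 landmarks in PMs was 0.17 at day 3 and 0.01 at day 6. In C2C12 cells it was -0.18 at day 0, -0.52 at day 3 and 0.47 at day 6. At day 6 the replicates of C2C12 cells differed. Over the 77 genes lower in both cell types, the siTead1/4 minus siControl difference was also taken between libraries of the same replicate number. Its median was 0.09 for replicate 1 and 0.54 for replicate 2, though the labels do not show that these numbers pair the libraries. Those 77 were chosen on the siControl libraries that these contrasts share. The siTead1/4 libraries of C2C12 cells at day 3 also held less of the muscle differentiation markers, 7814 and 10892 CPM summed against 20655 and 23574 in siControl, and the part of that difference was not tested.

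The change of the silencing effect from day 0 to day 3 was tested within each cell type. In C2C12 cells no member was called, nor was any gene by edgeR (0% in each direction, with 1745 genes at an unadjusted p under 0.05). The smallest p values were those of Hmga2 (2.72 ± 0.44, adjusted p = 0.08, edgeR) and Cdk2 (-1.01 ± 0.24, adjusted p = 0.14, edgeR), 9 members were higher and 6 lower at an unadjusted p under 0.05, and DESeq2 called 1 in each direction. In PMs 1 member was called, Tubb3, higher, where 0.229% of genes were higher and 0.0991% lower. Tubb3, a tubulin named for neurons, was at 57.4 and 58.1 against 29.6 and 29.2 CPM at day 0 and at 31.8 and 30.0 against 38.4 and 40.1 at day 3, so that the siTead1/4 libraries moved from below to above the siControl libraries (1.32 ± 0.22, adjusted p = 0.04, edgeR). The landmarks had a median of 0.65 in this contrast with 25 of 26 above 0. The member lowest in p below 0 was Pttg1 (-0.50 ± 0.18, adjusted p = 0.24, edgeR). These contrasts share the siControl libraries with the comparisons above.

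The silencing effect was also compared between the cell types. At day 0 no member was called, with 0.00591% of genes higher in PMs and 0% lower, 4 members higher and 3 lower at an unadjusted p under 0.05, and DESeq2 calling 1. At day 3 Cdk2 was called, where 1.02% of genes were higher and 0.236% lower. Cdk2, the kinase that drives S phase and also supports entry into mitosis, was at 101.1 and 91.1 against 51.9 and 57.0 CPM in C2C12 cells and at 46.1 and 50.0 against 59.7 and 58.3 in PMs. The siTead1/4 libraries were below the siControl libraries in C2C12 cells and above them in PMs, and the difference of the effects was 1.12 ± 0.19 (adjusted p = 0.0082, edgeR). Within C2C12 cells the effect was -0.85 ± 0.17 (adjusted p = 0.042, edgeR), below the fold limit. At day 6 no member was called, with 0.0295% of genes higher and 0.00591% lower, 2 members higher and 3 lower at an unadjusted p under 0.05 and none called by DESeq2. For these contrasts too, the share of all genes at that unadjusted p is not given. The smallest p values without a call were those of Mapre1 at day 0 (-0.44 ± 0.17, adjusted p = 1, edgeR), Rcc2 at day 3 (-0.83 ± 0.25, adjusted p = 0.13, edgeR), and Nek6 (-0.83 ± 0.19, adjusted p = 0.18, edgeR) and Cdk2 (0.54 ± 0.19, adjusted p = 0.57, edgeR) at day 6.

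**Figure D4:**
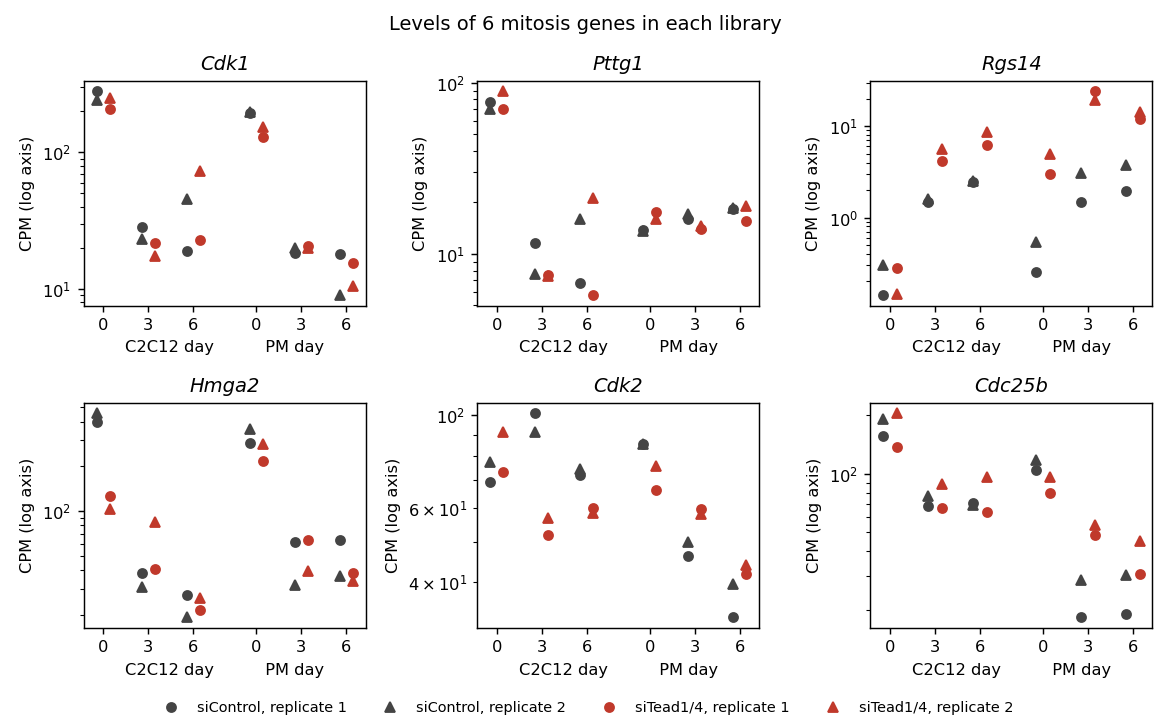
CPM on log axes of 6 mitosis genes in each library, by cell type and day, with siControl in grey, siTead1/4 in red, circles for replicate 1 and triangles for replicate 2. Cdk1 falls in both cell types, Pttg1 in C2C12 cells from 77.1 and 70.1 at day 0 while PMs stay between 13.6 and 19.0, and Rgs14 lies above the siControl libraries in siTead1/4 PMs at each day.

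Before the move to differentiation medium, PMs and C2C12 cells differed in few mitosis genes. The muscle differentiation markers already summed to 12344 and 11183 CPM in siControl PMs at day 0, against 126 and 47.4 in C2C12 cells. The part of that difference was not tested. At day 0, 7 members were higher and 4 lower in siControl PMs, where 16.3% of 16926 genes were higher and 10.5% lower. Higher were Klhl13 (3.96 ± 0.56), Fsd1 (3.12 ± 0.46, at 0.253 and 0.213 CPM in C2C12 cells and 1.91 and 2.17 in PMs), the small subunit Anapc13 (1.41 ± 0.23), Cdk3-ps, Arhgef2, Ccng1 and Mapre3. Lower were the scaffold protein Nedd9 (-2.71 ± 0.25, from 41.7 and 44.6 to 6.61 and 6.54 CPM), Pttg1, Tubb3 (-1.78 ± 0.46) and Lmln. The landmarks as a set differed little, with a median of -0.33, and all 189 members had one of -0.17. Cdk1 was at 281 and 244 CPM in C2C12 cells against 196 and 197 in PMs. None of the other 57 genes of the pathway was called.

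Levels can be compared between genes only per length. At siControl day 0 the median member was at 20.1 CPM per kb of the length in the table in C2C12 cells and at 18.7 in PMs. Highest were Tubb5 at 638 and 538 CPM per kb and the redox protein Txn1 at 626 and 414, followed by Tubb4b at 225 and 192. At day 6 the median was 9.25 and 7.63, and 10 members in C2C12 cells and 25 in PMs were below 1 CPM per kb, against 9 in each at day 0. The dynactin subunit Dctn2, which was not called at day 3, then stood at 201 and 180 CPM per kb.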

How the data were processed

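RNA-seq was made from total RNA with a poly-A kit that keeps no strand, in 2 libraries for each of 12 groups. Per the labels, the submitters' processing notes name CASAVA 1.8.2, TopHat2 2.0.10, Bowtie2 2.1.0, HTSeq 0.6.1, DESeq2 1.8.1 and the build mm9. The authors deposited raw read counts per gene beside normalized values, and the counts were used here. Another 36 columns of 12 libraries that the sample list does not hold were not used.

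Counts were scaled by TMM and tested with edgeR 4.0.16 (R 4.3.3, limma 3.58.1), a quasi-likelihood test with Benjamini-Hochberg adjustment over all genes past filterByExpr. Each cell type was fitted with 12 libraries and 6 group means, and contrasts between cell types with all 24 libraries. Calls needed both an adjusted p below 0.05 and a log2 fold change beyond 1 in size. CPM values use the scaled totals. With 25453830 to 52784510 counts per library, counting error is small except for low genes such as Rgs14. The script was tested on simulated data.

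Members and gene lists were chosen with earlier results of these data known. Named genes were a list of landmarks, the 3 largest called rises and falls of each comparison or, with no call, the smallest p, and Tead1 and Tead4. Other genes named as examples of a role were chosen after their values were seen. Alternatives were RLE size factors, no low-count filter, DESeq2 1.42.0, the adjusted p alone, a replicate block and leaving out each library. In all, 82 of 194 members overlap the span of another gene. RefSeq promoters (GRCm38.p6) matched 155 members by symbol. A duplicate Tead1 row with almost no counts was left out.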

Additional observations from a re-analysis of the deposited data

Results flagged for a closer look

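The effect of silencing on Tubb3 in PMs changed from below 0 at day 0 to above 0 at day 3, by 1.32 ± 0.22 on the log2 scale (adjusted p = 0.04, edgeR's quasi-likelihood test of the interaction). The call was lost in each of the 8 fits that leave out a library of these groups. The effect of silencing on Cdk2 at day 3 differed between the cell types by 1.12 ± 0.19 (adjusted p = 0.0082, edgeR), with siTead1/4 libraries lower in C2C12 cells and higher in PMs. That call was lost without PM siControl day 3 replicate 1 (adjusted p = 0.057, edgeR).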

How the results depend on the processing

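The falls between day 0 and day 3 kept their direction and count within 1.5 times under every alternative run. The share of all genes called is not given here for the fits below. Their counts therefore show only how the calls of members depend on the processing. Leaving out 1 library gave 64 to 85 lower and 5 to 8 higher members in C2C12 cells and 79 to 86 and 7 to 8 in PMs. It gave 0 to 17 lower members between days 3 and 6 in PMs, with 17 without PM siControl day 6 replicate 1, and 4 to 7 higher and 4 to 5 lower between the cell types. For silencing it gave 0 to 1 higher and 0 to 0 lower in C2C12 cells at day 0, 0 to 3 higher at day 3, 0 to 1 higher in PMs at day 0, 1 to 2 higher and 0 to 1 lower at day 3 and 0 to 0 higher at day 6. For the change of the effect it gave 0 to 1 higher in C2C12 cells and 0 to 0 in PMs, and for the difference between cell types at day 3 0 to 2 higher and 0 to 1 lower.

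With the adjusted p alone, 15 members were higher at day 3 in C2C12 cells and 23 in PMs, 2 higher and 3 lower between days 3 and 6 in PMs, and 21 higher and 22 lower in PMs than in C2C12 cells. Under silencing 1 was lower in C2C12 cells at day 3, 15 lower in PMs at day 0, and 5 higher and 3 lower in PMs at day 3. The share of all genes under this rule is given above for silencing in PMs at day 0 alone. Without the count filter, silencing gave in C2C12 cells 2 lower at day 0, 1 higher and 2 lower at day 3, 1 higher and 1 lower at day 6 and 1 higher for the change of the effect, in PMs 2 lower at day 3 and 2 higher for the change, and between cell types 2, 4 and 1 higher at days 0, 3 and 6, and 2 members were lower between days 3 and 6 in PMs. DESeq2 gave 1 higher in C2C12 cells at days 3 and 6, 1 higher and 1 lower for the change, 2 lower in PMs at day 3 and between days 3 and 6, 2 higher for the change and 1 higher between cell types at day 0. RLE size factors gave 2 lower in PMs at day 3.

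With 2 replicate numbers and no label that ties a number to a shared animal, batch or day, the numbers were not taken to pair the libraries. Same-numbered libraries had correlations of deviations from -0.17 to 0.47 in C2C12 cells, with -0.13, 0.09 and 0.47 between the siRNAs at days 0, 3 and 6. In PMs all were above 0, from 0.05 to 0.50, with 0.38, 0.41 and 0.50 between the siRNAs at days 0, 3 and 6, a hint of pairing from the data and not from the design. The replicate block gave 0 lower under silencing in C2C12 cells at day 0, 1 higher at day 3, 2 lower in PMs at day 3 and between days 3 and 6, 2 higher for the change in PMs and 2 higher between cell types at day 3. A crossed block, added after seeing the data, gave 0 higher and 1 lower at day 0 in C2C12 cells. Without both replicate 2 libraries of C2C12 cells at day 6, also added then, no member was lower at day 0 under silencing (0 against 1). Of 2289 values of named genes under alternatives, 67 lost and 22 gained a call, none reversed while called, and 124 of uncalled values changed sign. With 2 libraries per group the spread rests on few samples.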
